A study of Homo sapiens with 6 samples.

Results

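The genes described here are 38 genes of the endoplasmic reticulum, chosen by gene name from the deposited table: the sensors of the unfolded protein response, the chaperones, lectins and oxidoreductases that fold secretory proteins, the factors of endoplasmic reticulum-associated degradation, a pair of translocon subunits and an ER-phagy receptor. All 38 names were found among the 24878 genes of the table, and all 38 passed the filter on low counts that left 14601 genes for testing. The choice of genes used no measured value, but it was made with earlier results of these data known.

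The study sequenced poly-A RNA of MOLM-13, an established human line of acute myeloid leukaemia of the monocytic type (AML-M5), to ask what loss of CaMK2D, a calcium- and calmodulin-dependent protein kinase, does to these cells. The 6 libraries form 3 groups of 2. KO day 3 and KO day 5 hold cells labelled CaMK2D-KO, which carry a doxycycline-inducible knockout vector and had been induced for 3 and 5 days. The control libraries hold MOLM-13 cells labelled control, with a control vector per the series description, and received no doxycycline. The knockout vector, doxycycline and the time under it therefore differ together between KO and control libraries and cannot be told apart. The labels give 2 libraries a group without saying whether they came from separate cultures or clones, so each p-value here weighs a difference against library-to-library spread that may be technical alone.

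The libraries held 15456770 to 21081298 counts. Levels are given as FPKM, that is counts divided by exon length and library size, rescaled between libraries by the trimmed mean of M-values (TMM), or as CPM, counts divided by library size alone. CAMK2D, the targeted gene, had 2.0 and 2.12 FPKM at KO day 3 and 3.94 and 3.82 FPKM at KO day 5, against 3.12 and 1.97 FPKM in control libraries, and was called at neither day (edgeR adjusted p = 0.437 at day 3 and 0.118 at day 5). Without control replicate 1, CAMK2D was called higher at day 5 (log2 fold change 0.97, adjusted p = 0.0317), and leaving out each library gave 0.28 to 0.97 there. What the vector changes in the gene is not given, and a count over the whole gene cannot show a small edit, so this level does not check the KO labels. Of 8 markers fixed for MOLM-13 cells, CD33, FLT3, LYZ, HOXA9 and MEIS1 had at least 19.0 CPM in all 6 libraries, while ANPEP had at most 0.257 CPM. In control libraries MPO had 662 and 1220 CPM and CSF1R 30.9 and 41.0 CPM. At KO day 3 MPO had 16.5 and 27.7 CPM and CSF1R 1.36 and 6.82 CPM. At KO day 5 MPO had 6.85 and 15.6 CPM and CSF1R 1.53 and 5.35 CPM. LYZ differed between libraries of a group, with 19.0 and 229 CPM at KO day 5. The summed level of the 8 markers was 533 and 665 CPM at KO day 3 and 422 and 640 CPM at KO day 5, against 2050 and 2647 CPM in control libraries, mostly through MPO and FLT3. Plasma cells, which are rich in these chaperones, were checked through PRDM1, MZB1 and IGHG1 (4 other listed markers were not analysed here): the sum was 5.11 and 4.84 CPM at KO day 3 and 8.04 and 8.63 CPM at KO day 5, against 5.59 and 4.70 CPM in control libraries. MZB1 and IGHG1 stayed below 1 CPM in every library. Whether the lower levels of MPO, FLT3 and CSF1R bear on the genes below was not tested.

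Proteins made for secretion, for the cell surface and for lysosomes enter the endoplasmic reticulum through the SEC61 channel and fold there with the help of the HSP70 chaperone BiP, its J-domain partners, lectins that read N-glycans and enzymes that form disulfide bonds. Chains that do not fold are passed through the membrane by the SEL1L and HRD1 complex and destroyed by the proteasome. When unfolded chains accumulate, the sensors IRE1, PERK and ATF6 start the unfolded protein response, which raises chaperone and degradation genes through the transcription factors XBP1, ATF4 and cleaved ATF6. In bulk RNA, fewer cells of a kind and less RNA per cell cannot be told apart, and mRNA levels do not show sensor activation or XBP1 splicing.

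As a group, the 38 genes were more abundant in both KO groups. They took up 0.867% ± 0.00198 of all counts at KO day 3 and 0.990% ± 0.0118 at KO day 5, against 0.629% ± 0.0108 in control libraries (SD, n = 2 each). Their summed level per transcript length was 2172 ± 62.9 FPKM at KO day 3 and 2314 ± 4.80 FPKM at KO day 5, against 1564 ± 66.6 FPKM in control libraries (SD, n = 2 each). CALR and XBP1 were the most abundant of the 38 in control cells, with means of 359 and 236 FPKM, and RETREG1 was the least abundant, with 0.221 FPKM.

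**Figure D1:**
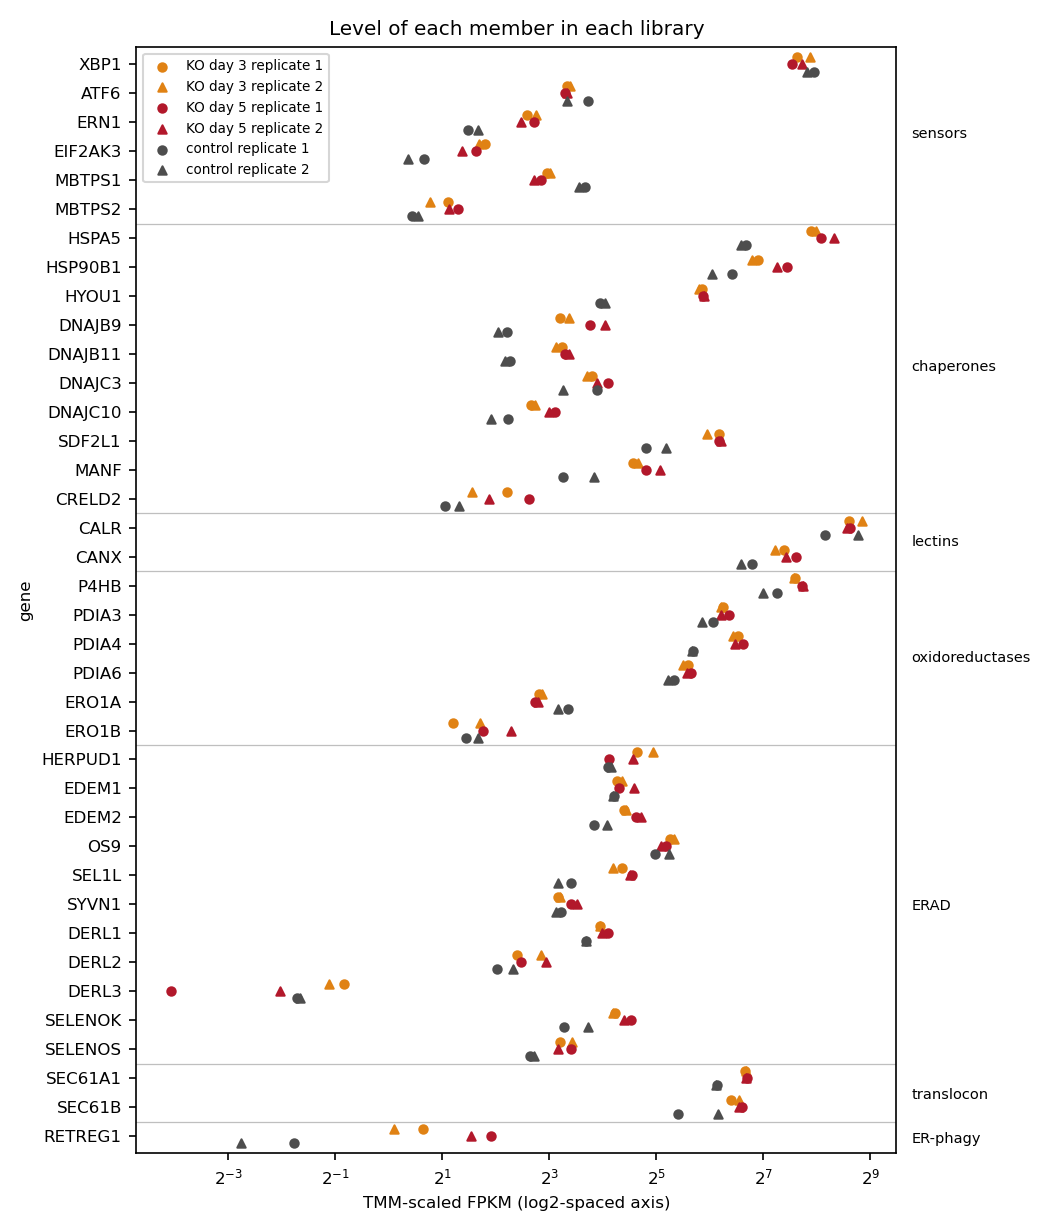
Level of each of the 38 genes in each of the 6 libraries, as TMM-scaled FPKM on a log2-spaced axis; circles are replicate 1 and triangles replicate 2, and the genes are grouped by role. HYOU1, HSPA5 and RETREG1 show all 4 KO points to the right of both control points, MBTPS1 shows them to the left, and CALR and DNAJC3 points overlap.

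At day 3, 18 of the 38 genes rose, 1 fell and 19 did not pass the test (edgeR quasi-likelihood test, Benjamini-Hochberg adjusted p under 0.05 over 14601 genes). Among all genes tested, 11.7% were called at day 3, 5.72% higher and 5.99% lower. The median log2 fold change was 0.61 over the 38 genes and -0.00012 over all genes tested. At day 5, 20 rose, 2 fell and 16 did not pass, where 14.5% of all genes were called, 7.44% higher and 7.05% lower. The median log2 fold change was 0.66 over the 38 and 0.01 over all genes. Both comparisons use the same 2 control libraries.

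Counted without a test, both KO day 3 libraries lay above both controls for 30 of the 38 genes and below them for 2, against 30.3% and 30.1% of all genes. At KO day 5 the counts were 29 above and 5 below, against 29.6% and 28.4% of all genes. The number of calls at day 3 depends on both KO day 3 libraries: 5 of the 38 were called without replicate 1 and 8 without replicate 2. A group is then 1 library, assumed to vary like the other groups, and calls over all genes were 282 and 333 in those fits, beside 1710 with all libraries. The median log2 fold change of the 38 was 0.55 without replicate 1 and 0.56 without replicate 2. HSPA5, HYOU1, ERN1 and SEL1L were the 4 that stayed called at day 3 when each of the 6 libraries was left out in turn. At day 5, 14 genes stayed called without each library, and these 14 were also the calls without KO day 5 replicate 1.

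**Figure D2:**
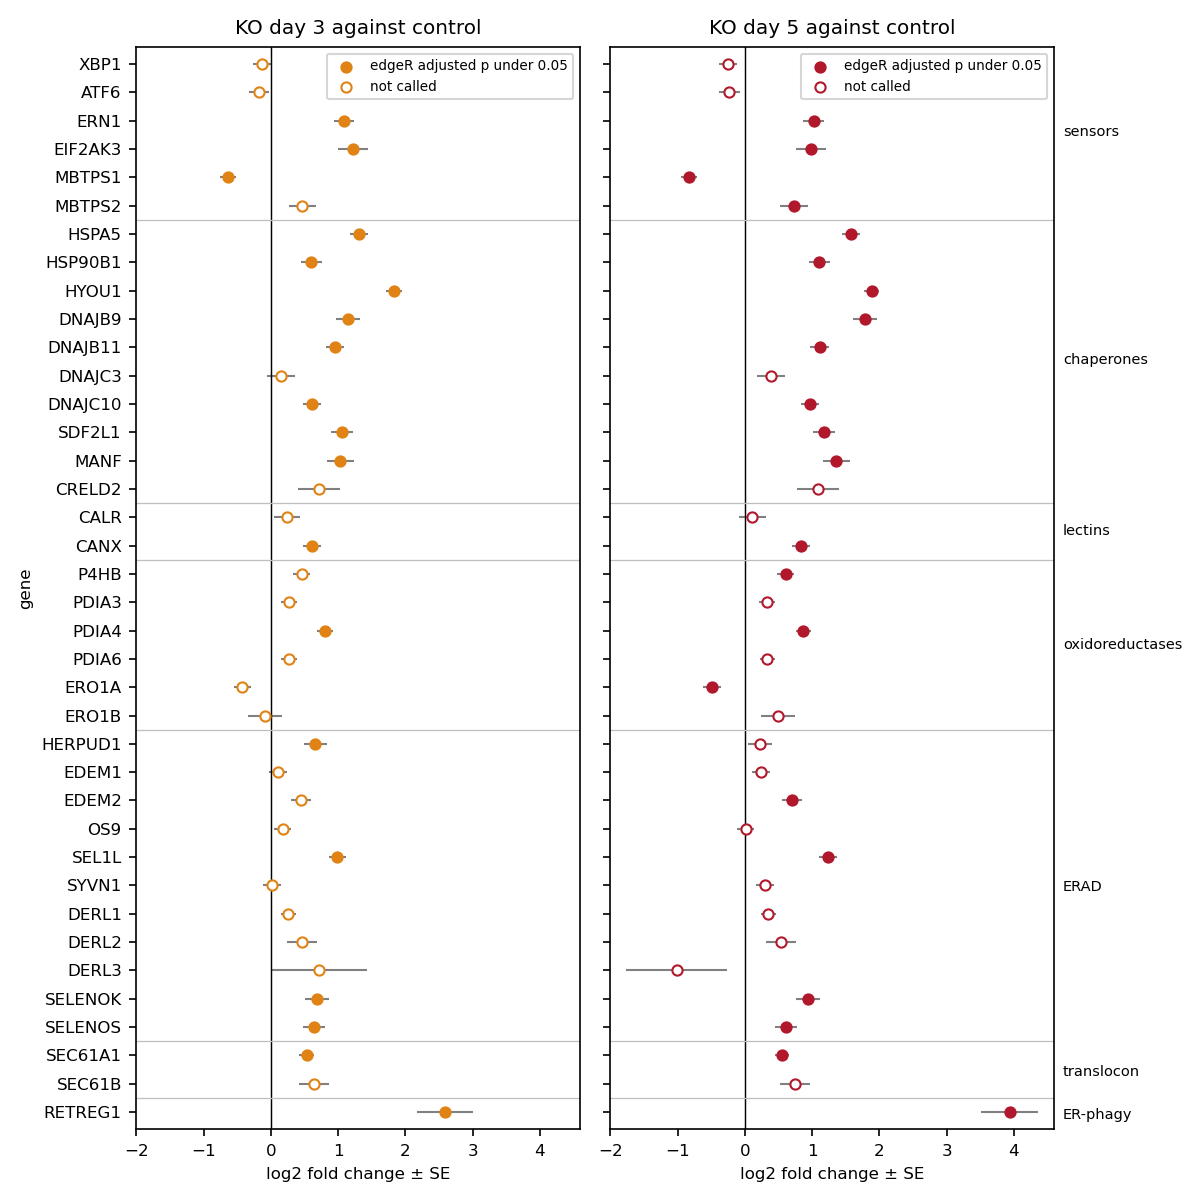
The log2 fold change of each gene at KO day 3 (left) and KO day 5 (right) against control, with bars of 1 SE from the edgeR fit; filled points passed the adjusted p threshold of 0.05. Of the 38 genes, 18 filled points lie right of 0 and 1 left at day 3, and 20 right and 2 left at day 5.

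A group of 6 genes holds the sensors ERN1, EIF2AK3 and ATF6, the transcription factor XBP1 and the proteases MBTPS1 and MBTPS2. The mRNAs of both kinase sensors rose about 2-fold while that of the protease MBTPS1 fell, and XBP1 and ATF6 did not pass the test. ERN1 (chr17:64039142-64130819, minus strand, GRCh38), which encodes the kinase and RNase IRE1, had 5.99 and 6.73 FPKM at KO day 3 and 6.57 and 5.56 FPKM at KO day 5, against 2.80 and 3.17 FPKM in control libraries. All 4 KO libraries were above both controls, and the log2 fold change was 1.09 (SE 0.152, adjusted p = 0.00594 by edgeR) at day 3 and 1.02 (SE 0.152, adjusted p = 0.00599) at day 5. EIF2AK3, which encodes PERK, the kinase that slows translation through eIF2α, had 3.49 and 3.22 FPKM at KO day 3 and 3.10 and 2.57 FPKM at KO day 5, against 1.58 and 1.29 FPKM in control libraries. Again the KO and control libraries did not overlap, and the log2 fold change was 1.23 (SE 0.222, adjusted p = 0.0143 by edgeR) at day 3 and 0.98 (SE 0.222, adjusted p = 0.0252) at day 5. The day 3 call of EIF2AK3 was lost without KO day 3 replicate 1 (adjusted p = 0.0947) or replicate 2 (0.0704). Its day 5 call was lost without control replicate 2 (0.095), KO day 5 replicate 1 (0.11) or replicate 2 (0.0561), or KO day 3 replicate 1 (0.0587) or replicate 2 (0.0555).

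MBTPS1 and MBTPS2 encode the site-1 and site-2 proteases of the Golgi, which cut ATF6, and also SREBP1 and SREBP2, to free their transcription factor domains. MBTPS1 (chr16:84053761-84116906, minus strand) had 7.74 and 8.04 FPKM at KO day 3 and 7.22 and 6.59 FPKM at KO day 5, against 12.7 and 11.8 FPKM in control libraries, so every KO library was below both controls. It fell by 0.64 (SE 0.121, adjusted p = 0.0167 by edgeR) on the log2 scale at day 3 and by 0.83 (SE 0.122, adjusted p = 0.00576) at day 5; the day 3 call was lost without KO day 3 replicate 1 (adjusted p = 0.144) or replicate 2 (0.124). MBTPS2 had 2.17 and 1.71 FPKM at KO day 3 and 2.47 and 2.19 FPKM at KO day 5, against 1.35 and 1.46 FPKM in control libraries. Its log2 fold change of 0.47 (SE 0.204, adjusted p = 0.173) at day 3 did not pass, and the 0.73 (SE 0.204, adjusted p = 0.0491) at day 5 did. That day 5 call was lost on leaving out any one of the 6 libraries, with adjusted p from 0.0859 to 0.175. XBP1, the transcription factor whose mRNA IRE1 splices, had 197 and 233 FPKM at KO day 3 and 186 and 213 FPKM at KO day 5, against 247 and 226 FPKM in control libraries (adjusted p = 0.559 at day 3 and 0.262 at day 5). ATF6, the third sensor, had 10.1 and 10.5 FPKM at KO day 3 and 9.83 and 10.0 FPKM at KO day 5, against 13.2 and 10.1 FPKM in control libraries (adjusted p = 0.475 at day 3 and 0.344 at day 5). For both genes the KO day 3 libraries overlapped the controls, and the KO day 5 libraries lay below both controls.

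Of the 10 chaperones of the HSP70 and HSP90 families and their co-factors, 8 rose at day 3 and the same 8 rose at day 5, and DNAJC3 and CRELD2 did not pass at either day. Their median log2 fold change was 1.0 at day 3 and 1.15 at day 5. HSPA5 (chr9:125234853-125241330, minus strand), which encodes BiP, the HSP70 of this compartment, had 238 and 254 FPKM at KO day 3 and 271 and 319 FPKM at KO day 5, against 102 and 95.7 FPKM in control libraries. HYOU1 (chr11:119044189-119057202, minus strand), the large HSP70 relative that exchanges the nucleotide on BiP, had 58.2 and 55.7 FPKM at KO day 3 and 58.6 and 59.6 FPKM at KO day 5, against 15.4 and 16.5 FPKM in control libraries. The 4 KO libraries lay well above both controls for each gene. HSPA5 was 2.49-fold higher at day 3 (log2 1.31, SE 0.13, adjusted p = 0.00192 by edgeR) and 2.98-fold higher at day 5 (log2 1.58, SE 0.131, adjusted p = 0.000731). HYOU1 was 3.56-fold higher at day 3 (log2 1.83, SE 0.115, adjusted p = 0.000377) and 3.70-fold higher at day 5 (log2 1.89, SE 0.115, adjusted p = 0.000187). These 2 genes stayed called at both days under all 16 alternative settings. HSP90B1 (chr12:103930107-103953645, plus strand), which encodes the HSP90 chaperone GRP94, had 120 and 110 FPKM at KO day 3 and 173 and 154 FPKM at KO day 5, against 85.6 and 66.0 FPKM in control libraries. Its libraries did not overlap between groups, with a log2 fold change of 0.60 (SE 0.152, adjusted p = 0.0409) at day 3 and 1.11 (SE 0.154, adjusted p = 0.00479) at day 5. The day 3 call of HSP90B1 held without control replicate 1 and was lost without any other one library, with adjusted p from 0.051 to 0.219.

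The J-domain proteins hand clients to BiP and trigger its ATPase. DNAJB9, also known as ERdj4, which in addition holds IRE1 inactive, had 9.19 and 10.3 FPKM at KO day 3 and 13.7 and 16.5 FPKM at KO day 5, against 4.64 and 4.12 FPKM in control libraries. The 3 groups did not overlap, and the log2 fold change was 1.15 (SE 0.179, adjusted p = 0.00848 by edgeR) at day 3 and 1.78 (SE 0.18, adjusted p = 0.0016) at day 5. DNAJB9 shares 3.49% of its exon bases with PNPLA8 and 6.45% with THAP5 on the opposite strand, and reads there cannot be assigned without strand. DNAJB11, also known as ERdj3, had 9.44 and 8.69 FPKM at KO day 3 and 9.81 and 10.4 FPKM at KO day 5, against 4.81 and 4.53 FPKM in control libraries. The log2 fold change of DNAJB11 was 0.96 (SE 0.138, adjusted p = 0.00681) at day 3 and 1.11 (SE 0.138, adjusted p = 0.00343) at day 5. DNAJC10, or ERdj5, which also reduces disulfide bonds, had 6.34 and 6.62 FPKM at KO day 3 and 8.59 and 8.0 FPKM at KO day 5, against 4.67 and 3.79 FPKM in control libraries. It rose by a log2 fold change of 0.62 (SE 0.136, adjusted p = 0.0267) at day 3 and 0.97 (SE 0.136, adjusted p = 0.00492) at day 5. In none of these 3 genes did a KO library overlap a control. At day 3, without KO day 3 replicate 1 the adjusted p was 0.063 for DNAJB11 and 0.124 for DNAJC10, and without KO day 3 replicate 2 it was 0.0611 for DNAJB9 and 0.154 for DNAJC10.

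SDF2L1, a partner of ERdj3, had 72.0 and 61.9 FPKM at KO day 3 and 71.9 and 73.8 FPKM at KO day 5, against 27.9 and 36.2 FPKM in control libraries. MANF, a secreted protein that binds BiP, had 23.7 and 25.3 FPKM at KO day 3 and 28.0 and 33.4 FPKM at KO day 5, against 9.52 and 14.3 FPKM in control libraries. All KO libraries were above both controls for SDF2L1 and for MANF. SDF2L1 had a log2 fold change of 1.06 (SE 0.163, adjusted p = 0.00813 by edgeR) at day 3 and 1.18 (SE 0.163, adjusted p = 0.00476) at day 5. MANF had a log2 fold change of 1.04 (SE 0.205, adjusted p = 0.0194) at day 3 and 1.36 (SE 0.206, adjusted p = 0.00658) at day 5. Without KO day 3 replicate 1 the day 3 adjusted p was 0.0625 for SDF2L1 and 0.0726 for MANF, and without KO day 3 replicate 2 it was 0.093 for MANF. Of the 2 that did not pass, CRELD2, a disulfide isomerase-like protein, had a log2 fold change of 0.72 (adjusted p = 0.176) at day 3 and 1.09 (adjusted p = 0.0558) at day 5, and was called at day 5 without KO day 5 replicate 2 (1.41, adjusted p = 0.0443). DNAJC3, a co-chaperone that also inhibits PERK, had 0.15 (adjusted p = 0.671) and 0.39 (adjusted p = 0.246), and its control libraries, at 14.8 and 9.53 FPKM, were on both sides of the KO day 3 libraries. At day 5 it was called without control replicate 1 (log2 fold change 0.73, adjusted p = 0.0233), and leaving out each library gave 0.07 to 0.73.

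The promoters of 5 genes that rose at both days are printed because they hold motifs through which the unfolded protein response factors ATF6 and XBP1 are known to act. They are the 250 bases before the RefSeq transcript start in GRCh38.p14, written 5′ to 3′ along the gene, with the matched motifs in capitals. In the GENCODE release 29 annotation, exons of HSP90B1, DNAJC10 and SDF2L1 start before or inside these windows.
HYOU1 (chr11:119057206-119057455, minus strand): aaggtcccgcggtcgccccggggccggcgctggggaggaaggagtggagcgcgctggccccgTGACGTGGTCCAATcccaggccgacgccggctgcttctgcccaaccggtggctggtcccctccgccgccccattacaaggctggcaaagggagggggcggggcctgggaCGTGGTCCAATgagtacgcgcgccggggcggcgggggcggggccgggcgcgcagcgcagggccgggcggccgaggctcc
HSPA5 (chr9:125241344-125241593, minus strand): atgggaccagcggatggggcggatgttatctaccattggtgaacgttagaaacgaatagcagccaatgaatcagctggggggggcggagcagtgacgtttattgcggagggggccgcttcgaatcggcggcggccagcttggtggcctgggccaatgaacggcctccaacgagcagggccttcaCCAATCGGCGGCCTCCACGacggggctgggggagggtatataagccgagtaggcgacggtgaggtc
SDF2L1 (chr22:21642052-21642301, plus strand): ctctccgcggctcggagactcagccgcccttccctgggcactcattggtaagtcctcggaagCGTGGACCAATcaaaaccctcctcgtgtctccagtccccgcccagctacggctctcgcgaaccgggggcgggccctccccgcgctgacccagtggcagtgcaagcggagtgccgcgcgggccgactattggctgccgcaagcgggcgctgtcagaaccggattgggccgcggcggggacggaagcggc
HSP90B1 (chr12:103930160-103930409, plus strand): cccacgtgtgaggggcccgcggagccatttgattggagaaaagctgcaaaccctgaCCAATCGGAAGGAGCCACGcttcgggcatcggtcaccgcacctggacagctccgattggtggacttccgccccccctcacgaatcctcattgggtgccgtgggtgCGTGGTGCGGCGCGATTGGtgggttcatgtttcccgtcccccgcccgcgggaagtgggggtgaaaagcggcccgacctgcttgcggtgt
DNAJC10 (chr2:182716007-182716256, plus strand): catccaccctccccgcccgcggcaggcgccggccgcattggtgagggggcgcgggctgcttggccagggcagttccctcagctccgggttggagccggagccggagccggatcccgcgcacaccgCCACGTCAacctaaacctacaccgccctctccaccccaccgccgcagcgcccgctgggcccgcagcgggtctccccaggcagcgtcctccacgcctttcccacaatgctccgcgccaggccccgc
HSPA5 has 1 match to the endoplasmic reticulum stress element ERSE (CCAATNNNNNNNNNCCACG, searched on both strands) 66 to 48 bases before the start, and HSP90B1 has 2, on opposite strands. HYOU1 has 2 matches to ERSE-II (ATTGG, any base, then CCACG), both on the strand opposite to the gene, and SDF2L1 has 1. A match to the unfolded protein response element UPRE (TGACGTGG) lies in HYOU1, where it overlaps the farther ERSE-II, and in DNAJC10.

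A promoter was matched for 35 of the 38 genes. ERSE was present in 7 of the 35 (20%), in HSPA5, HSP90B1, CANX, XBP1, CRELD2, CALR and ERO1B, and in 22 of 27305 promoters of the same length across the RefSeq table (0.0806%). Among the 9982 tested genes with a promoter, ERSE was in 14 (0.14%), ERSE-II in 10 (0.1%), UPRE in 67 (0.671%) and CARE, described below, in 145 (1.45%). ERSE-II was present in HYOU1, SDF2L1 and HERPUD1, 8.57% of the 35, and in 14 of the 27305 promoters (0.0513%). UPRE was in 2 of the 35 and in 182 of the 27305 (0.667%). The letters TGATGNAA, a C/EBP-ATF response element (CARE) read by ATF4, were in HERPUD1 alone of the 35 (2.86%) and in 870 of the 27305 (3.19%). Having a match did not go with being called in each case: of the 18 genes that rose at day 3 and have a promoter, 3 hold ERSE and 3 hold ERSE-II, and of the 16 that did not pass, 4 hold ERSE and 0 hold ERSE-II. At day 5, ERSE was in 3 of 20 that rose and in 4 of 13 that did not pass, and ERSE-II in 2 of the 20 and 1 of the 13. The 38 genes include chaperone and degradation genes that the unfolded protein response is known to raise. The shares above are therefore no test of its motifs. A match is a string of letters and not a measured binding site.

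**Figure D3:**
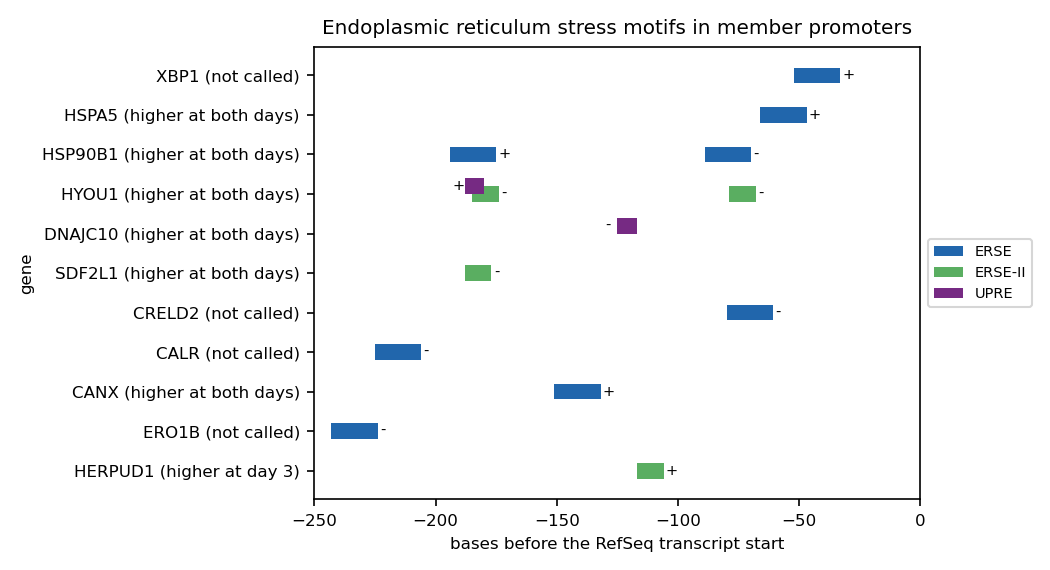
Position of each ERSE, ERSE-II and UPRE match in the 250 bases before the RefSeq transcript start, in bases, with + or - for the strand relative to the gene and the call of each gene in its row label. Of the 7 genes with ERSE, HSPA5, HSP90B1 and CANX rose at both days and XBP1, CRELD2, CALR and ERO1B passed at neither.

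Calnexin and calreticulin are the 2 lectins that hold newly made glycoproteins, the first in the membrane and the second in the lumen, and the mRNA of calnexin passed the test while that of calreticulin did not. CANX had 167 and 149 FPKM at KO day 3 and 196 and 173 FPKM at KO day 5, against 111 and 96.1 FPKM in control libraries. The groups did not overlap, and the log2 fold change was 0.61 (SE 0.135, adjusted p = 0.0275 by edgeR) at day 3 and 0.83 (SE 0.136, adjusted p = 0.00843) at day 5. The day 3 call was lost without KO day 3 replicate 1 (adjusted p = 0.202) or replicate 2 (0.109). CALR had 390 and 459 FPKM at KO day 3 and 395 and 379 FPKM at KO day 5, against 283 and 435 FPKM in control libraries. The 2 control libraries of CALR differed more from each other than the KO day 5 libraries did, and the log2 fold change was 0.24 (SE 0.2, adjusted p = 0.471) at day 3 and 0.11 (SE 0.2, adjusted p = 0.762) at day 5. Without control replicate 2, CALR was called higher at day 3 (log2 fold change 0.59, adjusted p = 0.022). Whether the effects on CANX and CALR differ was not tested.

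Of the 6 oxidoreductases, PDIA4 rose at day 3, and at day 5 PDIA4 and P4HB rose and ERO1A fell. PDIA4, a protein disulfide isomerase also known as ERp72, had 91.9 and 86.7 FPKM at KO day 3 and 98.1 and 88.9 FPKM at KO day 5, against 51.5 and 50.7 FPKM in control libraries. With every KO library above both controls, its log2 fold change was 0.81 (SE 0.115, adjusted p = 0.00671 by edgeR) at day 3 and 0.87 (SE 0.115, adjusted p = 0.00426) at day 5. P4HB, the archetypal disulfide isomerase, had 194 and 191 FPKM at KO day 3 and 213 and 215 FPKM at KO day 5, against 153 and 128 FPKM in control libraries. The libraries did not overlap, yet P4HB did not pass at day 3 (log2 fold change 0.46, SE 0.127, adjusted p = 0.0538) and passed at day 5 (0.61, SE 0.127, adjusted p = 0.0189). ERO1A, the oxidase that recharges P4HB, had 7.01 and 7.26 FPKM at KO day 3 and 6.66 and 6.95 FPKM at KO day 5, against 10.2 and 8.92 FPKM in control libraries. All 4 KO libraries of ERO1A were below both controls, with a log2 fold change of -0.42 (SE 0.132, adjusted p = 0.0785) at day 3, which did not pass, and of -0.49 (SE 0.133, adjusted p = 0.0441) at day 5. PDIA3 (ERp57, the partner of the lectins) and PDIA6 each had a log2 fold change of 0.27 at day 3 and 0.33 at day 5, with adjusted p from 0.0872 to 0.191. ERO1B, the second oxidase, had -0.08 at day 3 and 0.49 at day 5 and did not pass. The day 3 call of PDIA4 was lost without KO day 3 replicate 1 (adjusted p = 0.0681). At day 3, P4HB was called without control replicate 1 (log2 fold change 0.60, adjusted p = 0.0174). The day 5 call of P4HB held without either control and was lost without any one KO library (0.0585 to 0.0825), and that of ERO1A held without control replicate 2 and was lost without any other library (0.0848 to 0.154).

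In endoplasmic reticulum-associated degradation, 4 of 11 genes rose at each day and none fell, 3 of them at both days: SEL1L, SELENOK and SELENOS. SEL1L (chr14:81471549-81533861, minus strand), the adaptor that holds the ubiquitin ligase HRD1 and brings clients to it, had 20.6 and 18.3 FPKM at KO day 3 and 23.4 and 22.7 FPKM at KO day 5, against 10.6 and 8.97 FPKM in control libraries. Every KO library was above both controls, and the log2 fold change was 0.99 (SE 0.132, adjusted p = 0.00499 by edgeR) at day 3 and 1.24 (SE 0.133, adjusted p = 0.002) at day 5. SYVN1, which encodes HRD1 itself, had 9.02 and 9.18 FPKM at KO day 3 and 10.6 and 11.5 FPKM at KO day 5, against 9.27 and 8.71 FPKM in control libraries, and did not pass (log2 fold change 0.02, adjusted p = 0.95, at day 3 and 0.30, adjusted p = 0.165, at day 5). SYVN1 shares 7.24% of its exon bases with FAU and 6.48% with MRPL49, so its counts are uncertain. SELENOK, a small selenoprotein of the membrane, had 18.8 and 18.2 FPKM at KO day 3 and 23.0 and 21.1 FPKM at KO day 5, against 9.67 and 13.2 FPKM in control libraries. SELENOS, a selenoprotein that links derlins to the ATPase p97, had 9.26 and 10.7 FPKM at KO day 3 and 10.6 and 9.01 FPKM at KO day 5, against 6.24 and 6.59 FPKM in control libraries. No KO library of these 2 genes overlapped a control. SELENOK had a log2 fold change of 0.69 (SE 0.18, adjusted p = 0.0447) at day 3 and 0.94 (SE 0.18, adjusted p = 0.0145) at day 5, and SELENOS 0.64 (SE 0.165, adjusted p = 0.0438) at day 3 and 0.61 (SE 0.165, adjusted p = 0.0434) at day 5. The SELENOS calls were lost on leaving out any one library (adjusted p 0.0534 to 0.27 at day 3 and 0.0844 to 0.19 at day 5). The SELENOK call at day 3 held without control replicate 2 and was lost without any other library (0.0612 to 0.192), and at day 5 it was lost without KO day 5 replicate 1 (0.0671) or replicate 2 (0.0513).

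HERPUD1, a membrane protein that organises the HRD1 complex and a target of both ATF6 and ATF4, had 24.9 and 30.7 FPKM at KO day 3 and 17.4 and 23.7 FPKM at KO day 5, against 17.2 and 17.9 FPKM in control libraries. The KO day 3 libraries were above both controls and the KO day 5 libraries overlapped them. Its log2 fold change was 0.66 (SE 0.174, adjusted p = 0.0461 by edgeR) at day 3 and 0.23 (SE 0.174, adjusted p = 0.418) at day 5. EDEM2, a mannosidase that marks misfolded glycoproteins, had 21.2 and 21.7 FPKM at KO day 3 and 24.7 and 26.4 FPKM at KO day 5, against 14.4 and 16.9 FPKM in control libraries. Although neither KO group overlapped the controls, EDEM2 did not pass at day 3 (log2 fold change 0.46, SE 0.149, adjusted p = 0.0874) and passed at day 5 (0.71, SE 0.149, adjusted p = 0.0198). The HERPUD1 call at day 3 was lost without control replicate 1 (adjusted p = 0.144), control replicate 2 (0.0832), KO day 3 replicate 1 (0.0868) or KO day 3 replicate 2 (0.243). The EDEM2 call at day 5 held without control replicate 2 and was lost without any other library (0.0518 to 0.0997). The 6 others, EDEM1, the glycan-reading lectin OS9, SYVN1 and the derlins DERL1, DERL2 and DERL3, passed at neither day. Leaving out DERL3, their log2 fold changes ran from 0.01 to 0.54 over both days. DERL3 had only 4 to 41 counts per library and shares 77.0% of its exon bases with SMARCB1, so its values of 0.72 at day 3 and -1.02 at day 5 are uncertain.

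SEC61A1, the pore of the translocon, had 100 and 102 FPKM at KO day 3 and 104 and 102 FPKM at KO day 5, against 70.5 and 69.4 FPKM in control libraries. The libraries of each group lay close together, and the log2 fold change was 0.53 (SE 0.108, adjusted p = 0.0207 by edgeR) at day 3 and 0.56 (SE 0.108, adjusted p = 0.0155) at day 5. SEC61B, a small subunit of the same channel, had 83.8 and 93.1 FPKM at KO day 3 and 97.6 and 93.7 FPKM at KO day 5, against 42.6 and 71.0 FPKM in control libraries. Both control libraries of SEC61B were below every KO library but far from each other, and it did not pass (log2 fold change 0.64, SE 0.222, adjusted p = 0.108, at day 3 and 0.75, SE 0.223, adjusted p = 0.063, at day 5). Without control replicate 2, SEC61B was called higher at day 3 (1.06, adjusted p = 0.00372) and at day 5 (1.14, adjusted p = 0.00303). The SEC61A1 call was lost at day 3 without KO day 3 replicate 1 (adjusted p = 0.143) or replicate 2 (0.16). At day 5 it held without either control and was lost without any one KO library (0.0589 to 0.0745).

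In the edgeR fit, the largest log2 fold changes of the 38 genes were those of RETREG1 (chr5:16473038-16617058, minus strand), the reticulon-like receptor, also known as FAM134B, that feeds sheets of endoplasmic reticulum to autophagosomes. RETREG1 had 1.55 and 1.07 FPKM at KO day 3 and 3.78 and 2.91 FPKM at KO day 5, against 0.295 and 0.147 FPKM in control libraries. In counts these were 136 and 89 at KO day 3 and 305 and 243 at KO day 5, against 21 and 14 in control libraries, so the control level rests on few reads. The 3 groups did not overlap. RETREG1 was 6.02-fold higher at day 3 (log2 2.59, SE 0.411, adjusted p = 0.00927 by edgeR) and 15.3-fold higher at day 5 (log2 3.94, SE 0.42, adjusted p = 0.002). The day 3 call was lost without KO day 3 replicate 1 (adjusted p = 0.0519). The size depends on the pseudocount: on the log2(FPKM + 1) scale the difference was 0.89 at day 3, below the 1.74 of HYOU1, and 1.85 at day 5. On that scale without a filter the day 3 call was lost.

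**Figure D4:**
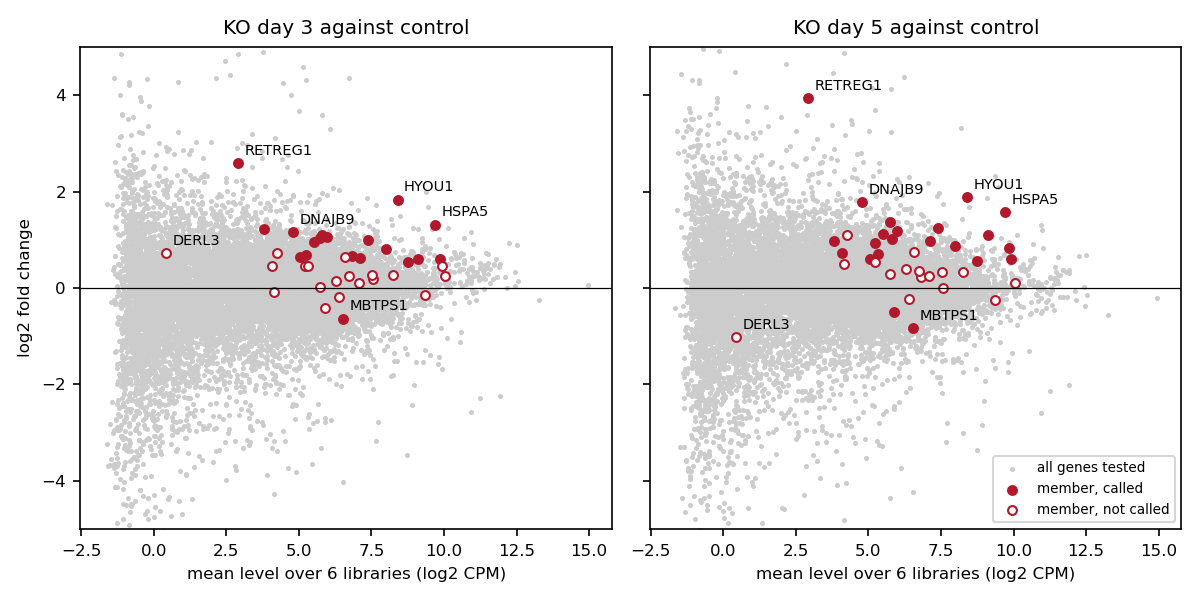
The log2 fold change of all 14601 genes tested (grey) and of the 38 genes (red, filled where called) against their mean level over the 6 libraries in log2 CPM, at KO day 3 (left) and KO day 5 (right); the vertical axis ends at 5 and leaves 65 genes at day 3 and 77 at day 5 outside it. HYOU1 and HSPA5 lie among abundant genes, and RETREG1 stands highest of the 38.

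Between the days, KO day 5 against KO day 3, 0 of the 38 genes passed the edgeR test, where 0.0274% of all genes did (4 genes). On simulated counts of this comparison, 2-fold changes were recovered for 33.9% of 115 genes, so the absence of calls does not show unchanged levels. At an unadjusted p under 0.05 there were 6: RETREG1, DNAJB9, HSP90B1 and DNAJC10 with positive and HERPUD1 and DERL3 with negative log2 fold changes. How many of all genes passed that unadjusted threshold was not counted, so the 6 are not read as a result. RETREG1 had 3.78 and 2.91 FPKM at KO day 5 and 1.55 and 1.07 FPKM at KO day 3, a log2 fold change of 1.35 (SE 0.362, adjusted p = 0.203 by edgeR). DNAJB9 had 13.7 and 16.5 FPKM at KO day 5 and 9.19 and 10.3 FPKM at KO day 3 (log2 0.63, SE 0.173, adjusted p = 0.204). HSP90B1 had 173 and 154 FPKM at KO day 5 and 120 and 110 FPKM at KO day 3 (log2 0.51, SE 0.152). HERPUD1 had a change of the opposite sign, with 17.4 and 23.7 FPKM at KO day 5 and 24.9 and 30.7 FPKM at KO day 3 (log2 -0.44, SE 0.174). For these 4 genes the libraries of the 2 days did not overlap. Over the 38, both KO day 5 libraries were above both KO day 3 libraries for 20 genes and below for 7, against 25.5% and 23.8% of all genes, and the median log2 fold change was 0.12, beside 0.02 over all genes. DESeq2 called 1 of the 38 between the days, RETREG1, beside 435 of all genes, and limma on log2(FPKM + 1) called 0, beside 1 of all genes.

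Beyond the 38, 6 wider lists of genes of the same compartment were counted with the same fit. Of 26 further folding factors tested, 4 rose and 0 fell at day 3 and 8 rose and 0 fell at day 5, with a median log2 fold change of 0.30 and 0.31. These are 15.4% and 30.8% of the list, beside 11.7% and 14.5% of all genes. Leaving out 1 library gave 1 to 7 calls at day 3, the lowest without either KO day 3 library, and 3 to 9 at day 5, the lowest without KO day 5 replicate 1. HSPA13, a membrane-bound HSP70 relative, averaged 27.0 ± 0.320 FPKM at KO day 3 and 39.9 ± 0.998 FPKM at KO day 5, against 15.7 ± 1.31 FPKM in control libraries (SD, n = 2 each), and DNAJC1, CRELD1 and PDIA5 also rose at both days. Of 30 further degradation factors, 5 rose and 3 fell at day 3 and 8 rose and 2 fell at day 5, with medians of 0.03 and 0.10. These are 26.7% and 33.3% of the list, and leaving out 1 library gave 2 to 9 calls at day 3, the lowest without either KO day 3 library, and 5 to 9 at day 5, the lowest without either KO day 5 library. UFM1 and UFL1, the modifier and ligase of ufmylation, and the ligase RNF185 rose at both days, while TRIM13, a membrane-bound ubiquitin ligase, fell to 4.94 ± 1.37 FPKM at KO day 3 and 3.54 ± 0.383 FPKM at KO day 5, against 13.1 ± 1.4 FPKM in control libraries (SD, n = 2 each). Of 28 genes of translocation and N-glycosylation, 4 rose and 1 fell at day 3 and 7 rose and 1 fell at day 5, 17.9% and 28.6% of the list. Leaving out 1 library gave 1 to 5 calls at day 3, the lowest without either KO day 3 library, and 3 to 9 at day 5, the lowest without KO day 5 replicate 1. SEC11C, a catalytic subunit of signal peptidase, averaged 16.5 ± 0.685 FPKM at KO day 3 and 21.0 ± 1.0 FPKM at KO day 5, against 4.33 ± 1.3 FPKM in control libraries (SD, n = 2 each). SRPRB rose at both days, and SSR1 and SPCS3 at day 5.

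Of 11 genes of the PERK to ATF4 arm, 5 rose and 1 fell at day 3 and 6 rose and 0 fell at day 5, with a median log2 fold change of 0.53 and 0.51. Among all genes tested, 11.7% were called at day 3 and 14.5% at day 5. The log2 fold changes ran from -0.53 to 2.0 at day 3, with 2 negative. At day 5 they ran from -1.12 to 2.32, with 3 negative. The calls are 54.5% of the list at each day, and leaving out 1 library gave 4 to 5 at day 3 and 4 to 6 at day 5. TRIB3, a pseudokinase, averaged 233 ± 1.73 FPKM at KO day 3 and 290 ± 24.5 FPKM at KO day 5, against 58.2 ± 5.55 FPKM in control libraries (SD, n = 2 each). PPP1R15A, the phosphatase subunit that reverses PERK signalling, averaged 45.7 ± 4.37 FPKM at KO day 3 and 67.3 ± 12.3 FPKM at KO day 5, against 14.8 ± 0.00575 FPKM in control libraries (SD, n = 2 each), and the stress genes DDIT3 and SESN2 rose at both days. Of 10 further regulators, 3 rose at day 3 and 2 at day 5: NFE2L1 and CREB3L4 at both days and DDI2 at day 3. These are 30% and 20% of the list, beside 11.7% and 14.5% of all genes. Leaving out 1 library gave 0 to 2 calls at day 3, the lowest without either KO day 3 library, and 0 to 1 at day 5, where 1 call was left without control replicate 2 and 0 without any other library. TRAF2 had log2 fold changes of -0.03 and -0.45 and did not pass. Of 6 further ER-phagy receptors, CCPG1 rose at both days (log2 fold change 1.41 at day 3 and 2.0 at day 5) and ATL3 fell at day 5 (-0.83), while SEC62 and TEX264 passed at neither. The calls are 16.7% of this list at day 3 and 33.3% at day 5. In lists of 10 and 6 genes a single call moves the share far, so these counts are not read as results about the 2 lists. Calls lost when 1 library was left out were, at day 3, CRELD1 (without KO day 3 replicate 1), DNAJC1 (replicate 2) and HSPA13, PDIA5, RNF185, UFM1, SRPRB and NFE2L1 (either replicate), with adjusted p up to 0.13. DDI2 was lost at day 3 without any one of the control and KO day 3 libraries (up to 0.253) and CREB3L4 without any one library (up to 0.226). At day 5 they were DDIT3, SPCS3 and ATL3 (without KO day 5 replicate 2), PDIA5 (either KO day 5 replicate), and SRPRB, NFE2L1 and CREB3L4 (without 5 or more of the 6 libraries in turn), with adjusted p up to 0.208.

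**Figure D5:**
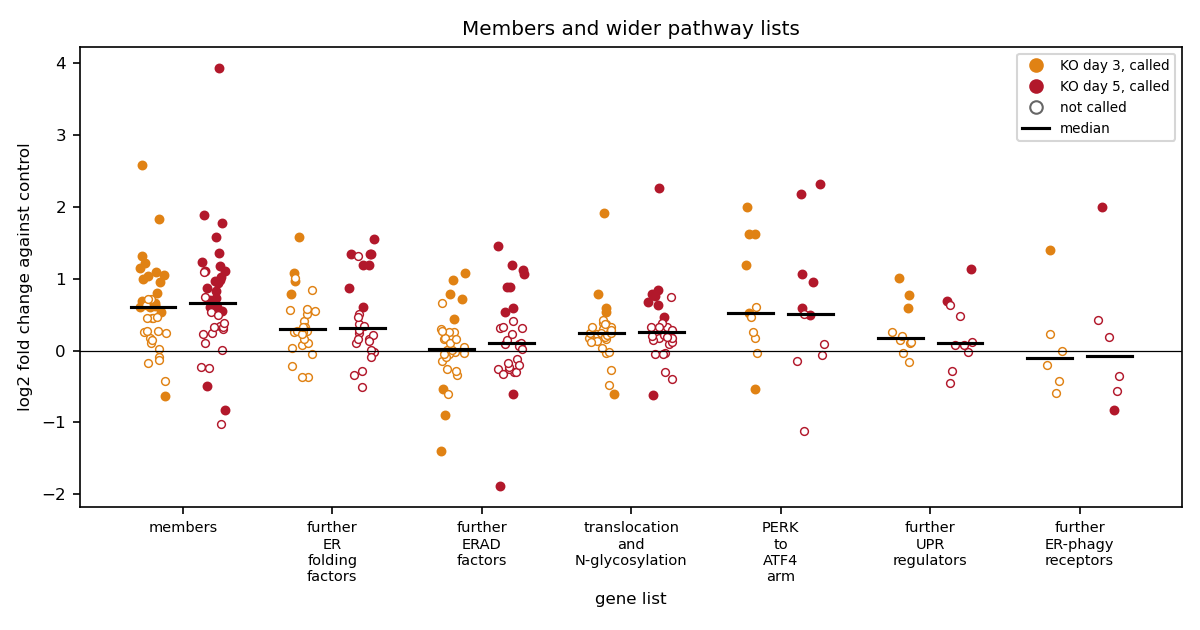
The log2 fold change against control of each of the 38 genes and of each tested gene of the 6 wider lists, at KO day 3 and KO day 5; filled points passed the edgeR threshold, open points did not, and bars are medians. The median of the 38 genes is 0.61 at day 3 and 0.66 at day 5, and that of the further ER-phagy receptors is -0.11 and -0.08.

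Of the 38 genes, 22 share exon bases with another annotated gene, most often on the opposite strand, and the library kit is not stated to keep strand. Whether reads in shared bases were counted for these genes or left out is not known, because the counting options are not given. Pseudogene copies listed by name, of PDIA3, SELENOK and XBP1, held at most 0.319% of the counts of their parent gene.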

How the data were processed

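The deposited table holds, per the file headers, whole-number counts and FPKM values of 24878 genes in each of the 6 libraries. The submitters' processing notes name HISAT2, HTSeq 0.11.2, DESeq2 1.26.0 and GRCh38. The sources used here do not give the annotation, the counting options or the strand setting; the authors' deposited gene lengths equal the GENCODE release 29 exon lengths, within 1 base, for all 38 genes.

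From the deposited counts, genes were filtered with filterByExpr (minimum count 10, minimum total 15), which left 14601, and scaled by TMM (factors 0.962 to 1.04). All 6 libraries were fitted in 1 model of group means with edgeR 4.0.16 (R 4.3.3; robust quasi-likelihood F test, 3 residual degrees of freedom), with Benjamini-Hochberg adjustment over all 14601 genes and a threshold of 0.05. Log2 fold changes use a prior count of 0.125, and the SE is the absolute log2 fold change divided by the square root of F. FPKM values printed here were computed from the deposited counts and lengths with TMM-scaled library sizes. A count of 0 allowed up to 3 counts, at most 0.194 CPM; such limits and the tests' counting part cover counting error only.

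On simulated counts, 2-fold changes were recovered for 34% of 100 genes and 4-fold changes for 68.4% of 95 genes in the day 3 comparison, with 11 false calls among 14204 genes tested there; in the day 5 comparison the shares were 43.9% of 107 and 70.8% of 89, with 17 among 14172. Replicates of a group differed beyond sampling noise (chi-square over degrees of freedom 17.4 to 37.7), so none was counted as a duplicate.

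Values in every library are given for genes called in any comparison and for the sensors, others as ranges and counts; from each wider list the 4 tested genes with the smallest adjusted p at either day are named. The 38 genes and the lists were chosen with earlier results of these data known. Alternatives were other scalings, filters and tools (DESeq2 1.42.0, limma 3.58.1 on log2 of the authors' FPKM), a replicate block, and leaving out each library. Running them on the wider lists and on CAMK2D was chosen after seeing the data. A lone remaining library takes its spread from the other groups. Promoters came from RefSeq (GRCh38.p14), and gene positions from GENCODE release 29. Markers of T cells and part of the other cell type lists were not analysed here.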

Additional observations from a re-analysis of the deposited data

How the results depend on the processing

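With 2 libraries a group, each call rests on few values. At day 3, 19 of the 38 genes were called, and leaving out each library gave 5 to 18; limma on log2(FPKM + 1) without a filter gave 3, and the other settings 14 to 25. At day 5, 22 were called, leaving out each library gave 14 to 20, and the other settings gave 15 to 29. Between the days 0 were called, and leaving out each library gave 0 to 0; no low-count filter gave 1, DESeq2 1 and the replicate block 4, and the other settings 0. The sign of all 19 genes called at day 3 and all 22 called at day 5 was kept under all 16 alternatives. Signs turned for genes that were not called: OS9 at day 5 was 0.01 and became -0.012 with RLE factors, -0.034 without a low-count filter, -0.00111 with a filter of 5 CPM in 2 libraries, -0.013 with DESeq2 and -0.00874 with the 4 libraries compared, and ran from -0.12 to 0.12 when each library was left out. SYVN1 at day 3 was 0.02 and became -0.00901 with the 5 CPM filter, -0.017 with limma at a pseudocount of 1, with or without a filter, and -0.018 at 0.1. Leaving out each library in turn gave, at day 3, -0.35 to 0.0301 for ATF6, -0.12 to 0.51 for DNAJC3, -0.03 to 0.59 for CALR, -0.33 to 0.15 for ERO1B, -0.02 to 0.0652 for SYVN1 and -0.59 to 0.0684 for CAMK2D, and at day 5 -0.18 to 0.42 for CALR and -0.01 to 0.42 for HERPUD1. The cause was not tested.

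Over all genes, 1710 were called at day 3 and 282 to 1906 without 1 library, 2925 without a filter, 2638 with DESeq2 and 254 with limma without a filter. At day 5, 2117 were called and 723 to 1874 without 1 library, 3234 without a filter, 1315 with the 4 libraries compared and 605 with limma without a filter. Between the days, 4 were called and 1 to 15 without 1 library, 599 without a filter and 435 with DESeq2. The library titles share a letter, A or B, across the 3 groups, but the labels do not say what the letter or the replicate number marks. The deviations of same-numbered libraries from their group means correlated by 0.401 for KO day 3 and control, 0.348 for KO day 5 and control and 0.423 for the 2 KO groups (14601 genes), but there are only 2 numbers. With the replicate block, 25 of the 38 genes were called at day 3, 29 at day 5 and 4 between the days (RETREG1, DNAJB9 and HSP90B1 higher and HERPUD1 lower), beside 4064, 4418 and 1117 of all genes.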
